A study of Arabidopsis thaliana with 2 samples.

Results

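The Aux/IAA genes described here are 10 members of the Arabidopsis thaliana family of auxin response repressors: IAA1, IAA2, IAA3, IAA5, IAA6, IAA7, IAA14, IAA17, IAA19 and IAA29. Their loci are AT4G14560 (IAA1), AT3G23030 (IAA2), AT1G04240 (IAA3), AT1G15580 (IAA5), AT1G52830 (IAA6), AT3G23050 (IAA7), AT4G14550 (IAA14), AT1G04250 (IAA17), AT3G15540 (IAA19) and AT4G32280 (IAA29). They were taken by these identifiers from a table of 26743 features, and all 10 were found in it. The table holds 1 RNA sequencing library of jmj17-1 mutant seedlings and 1 of wild-type (WT) seedlings, both in the Col-0 background. The jmj17-1 line carries a mutation in JMJ17, a histone H3 lysine 4 demethylase gene. Both genotypes were sampled as whole seedlings that were 7 days old and had grown on 1/2MS medium without sucrose, under days of 16 h of light and 8 h of darkness. The labels give neither the position of the mutation in the gene nor the number of seedlings pooled. With 1 library per genotype no difference has a replicate check, so no test was run and every value describes these 2 libraries.

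Auxin acts by removing repressors. Aux/IAA proteins bind the auxin response factors (ARFs), the transcription factors of the pathway, and recruit corepressors to their target genes. Auxin bridges an Aux/IAA protein and an F-box receptor of the TIR1/AFB type, the Aux/IAA protein is ubiquitinated and degraded, and the ARF target genes are transcribed. Many Aux/IAA genes are themselves such targets, so the pathway makes its own repressors, and their transcripts are widely used as readouts of auxin response. Stabilized forms of IAA3 (SHY2), IAA7 (AXR2), IAA14 (SLR), IAA17 (AXR3) and IAA19 (MSG2) are known from dominant mutants with altered root growth, gravitropism, lateral roots or hypocotyl bending.

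The libraries rested on 45403267 reads for jmj17-1 and 53890006 for WT. JMJ17 (AT1G63490), measured as a check of the labels, stood at 2.90 RPKM in jmj17-1 and 5.48 RPKM in WT. RPKM counts reads, divided by the length of the feature in kilobases and by the size of the library in units of 1000000 reads. The whole-seedling label was set against organ markers. Of 10 root markers 8 reached a mean of 1 RPKM. All 8 had a log2 ratio above 0, against 11478 of the 18969 features that reached this mean. Of the 8, 1, WOX5, was more than 1.5-fold higher, against 1.51% of these features. The 10 together summed to 56.1 RPKM in jmj17-1 and 47.9 RPKM in WT. The 3 shoot apex markers in the table summed to 5.40 RPKM in jmj17-1 and 4.63 RPKM in WT. None of the markers found was at 0. The seed storage genes CRA1 and CRU3 stood at 1.70 and 0.551 RPKM in jmj17-1, against 7.39 and 6.34 RPKM in WT. The part of these organ and seed markers in the Aux/IAA values was not tested. In whole seedlings fewer cells that express a gene and less RNA per cell cannot be told apart.

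Most of the 10 Aux/IAA genes were lower in jmj17-1, by modest factors. IAA3, IAA1, IAA19 and IAA2 had ratios of RPKM in jmj17-1 to RPKM in WT of 0.585, 0.624, 0.650 and 0.699, while IAA7 and IAA29 were nearly level between the libraries. The summed level of the 10 genes was 165 RPKM in jmj17-1 and 209.6 RPKM in WT, a ratio of 0.788. For all 26743 features this ratio of sums was 0.992. For counting, 1 was added to both RPKM values and the log2 of their ratio, jmj17-1 over WT, was taken. The added 1 draws the ratios of low genes towards 0. The log2 ratio was read for features with a mean of at least 1 RPKM over both libraries, and 8 of the 10 genes met this limit. IAA5 and IAA6 did not. Of the 8 genes 7 lay below 0, against 39.5% of all 18969 features that met the limit. IAA7, at -0.01, is 1 of the 7, and other scalings of the libraries moved the count to 6 or 8. The median log2 ratio of the 8 genes was -0.42, against 0.04 for all features. With 5 RPKM added in place of 1 it was -0.26, against 0.03. A 2-fold difference in either direction was reached by 0 of the 8 genes, against 0.970% of all features, of which 0.390% were higher and 0.580% lower. At the smaller size of 1.5-fold, 2 of 8 were lower (IAA1 and IAA3), against 1.93% of all features, and 0 were higher, against 1.51%. Either way this was 2 of 8, against 3.44% of all features. All these counts set genes side by side within 1 pair of libraries. The 10 genes were chosen with earlier results of these data known, so the counts describe them and are no support for a shift of the family.

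**Figure D1:**
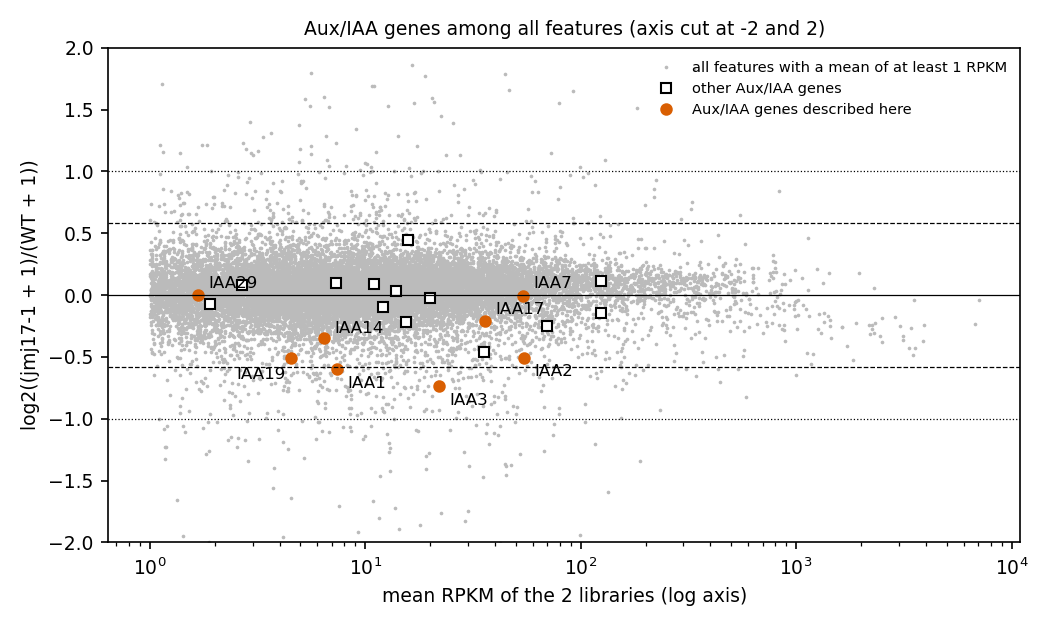
Each point is 1 feature, with the mean RPKM of both libraries on a log x axis and log2((jmj17-1 + 1)/(WT + 1)) on the y axis, dashed lines at 1.5-fold and dotted lines at 2-fold. Of the 8 filled points 7 lie below 0, that of IAA7 at only -0.01, and IAA1 and IAA3 lie below the lower dashed line.

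In position, 6 of the 10 genes form 3 neighbouring pairs. IAA14 (chromosome 4, 8347822 to 8350263, minus strand) lies 10732 bases from IAA1 (8360996 to 8362033, plus strand). IAA2 (chromosome 3, 8180646 to 8182095, minus strand) lies 12510 bases from IAA7 (8194606 to 8197161, plus strand). IAA3 (chromosome 1, 1128149 to 1129689, minus strand) lies 6388 bases from IAA17 (1136078 to 1138663, plus strand). In each pair the 2 genes are transcribed away from each other, with 1 annotated gene between them. The other 4 genes lie apart, IAA5 (5365512 to 5366497, minus strand) and IAA6 (19672476 to 19673652, minus strand) on chromosome 1, IAA19 (5264001 to 5265695, plus strand) on chromosome 3 and IAA29 (15583332 to 15584903, plus strand) on chromosome 4. Coordinates are those of RefSeq's annotation of TAIR10.1.

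The coding sequences fall into groups that cut across these pairs. IAA1, IAA2 and IAA3, with their relative IAA4, shared 64.2% to 80.4% of coding bases with one another. IAA7, IAA14 and IAA17, with their relative IAA16, shared 66.7% to 80.2%. Between these 2 groups of 4 genes the 16 comparisons gave 47.4% to 56.7%. Each neighbouring pair therefore holds 1 gene of each group. IAA6 and IAA19 were closest to each other, at 70.9%, and IAA29 stood apart, with 55.2% to its closest relative IAA11. IAA5 was closest to IAA6, at 59.3%, but nearly as close to IAA2, at 59.2%. No stretch of at least 50 bases with at least 95% identity to another place in the genome was found in any of the 29 Aux/IAA transcripts.

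The IAA1 to IAA3 genes encode early auxin-induced repressors, and IAA3 is best known for restraining root meristem size together with cytokinin. IAA3 stood at 16.2 RPKM in jmj17-1 and 27.7 RPKM in WT, a fold of 0.585 (95% interval 0.542 to 0.632, from about 998 and 2023 reads). IAA1 stood at 5.67 RPKM in jmj17-1 and 9.08 RPKM in WT, a fold of 0.624 (0.532 to 0.731). IAA2, the most abundant of the 10 in WT, stood at 45.1 RPKM in jmj17-1 and 64.4 RPKM in WT, a fold of 0.699 (0.664 to 0.737). Folds are plain ratios of RPKM, and the intervals are exact Clopper-Pearson intervals of the share of reads, which cover counting error only and say nothing of the spread between seedlings. All 3 intervals lie below 1. The share of all features with intervals that exclude 1 was not computed. Here and in the paragraphs below, an interval that excludes 1 is therefore no result about these genes. Among all 18969 features counted from the lowest log2 ratio, IAA3 ranked 223, IAA1 ranked 358 and IAA2 ranked 489. IAA3 overlaps AT1G04230 on the opposite strand by 640 bases. Whether counting was by strand is not stated, so the value of IAA3 is uncertain. AT1G04230 itself stood at 8.58 RPKM in jmj17-1 and 8.87 RPKM in WT, a fold of 0.967.

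The 300 bases before the annotated starts of IAA1 (chr4:8360696-8360995, plus strand) and IAA3 (chr1:1129690-1129989, minus strand) are shown because these 2 genes passed the 1.5-fold size. Capitals mark the auxin response element TGTCTC and its variant TGTCGG on either strand.
IAA1: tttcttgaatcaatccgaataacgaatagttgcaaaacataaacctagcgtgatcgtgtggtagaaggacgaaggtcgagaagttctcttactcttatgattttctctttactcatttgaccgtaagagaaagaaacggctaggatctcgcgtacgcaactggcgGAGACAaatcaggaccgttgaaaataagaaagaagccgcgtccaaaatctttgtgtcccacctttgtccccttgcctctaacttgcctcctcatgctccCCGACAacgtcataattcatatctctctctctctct
IAA3: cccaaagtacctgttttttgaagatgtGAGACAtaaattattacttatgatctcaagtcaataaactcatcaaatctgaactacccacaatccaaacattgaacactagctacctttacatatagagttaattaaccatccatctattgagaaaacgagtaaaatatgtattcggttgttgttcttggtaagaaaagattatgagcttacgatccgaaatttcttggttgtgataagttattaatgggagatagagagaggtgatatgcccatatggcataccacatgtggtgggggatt
In IAA1 the element lies 135 to 130 bases before the start and the variant 36 to 31 bases before it. In IAA3 there is 1 element, 273 to 268 bases before the start. No element, variant or G-box CACGTG was found in the same window of IAA2.

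IAA7, IAA14 and IAA17 encode repressors that act in root gravitropism, lateral root initiation and root hair growth. IAA7 stood at 53.7 RPKM in jmj17-1 and 54.0 RPKM in WT, a fold of 0.993 (0.951 to 1.04). It was the most abundant of the 10 in jmj17-1. IAA17 stood at 33.3 RPKM in jmj17-1 and 38.6 RPKM in WT, a fold of 0.863 (0.809 to 0.920). IAA14 stood at 5.52 RPKM in jmj17-1 and 7.27 RPKM in WT, a fold of 0.759 (0.675 to 0.853, from about 473 and 740 reads). The intervals of IAA14 and IAA17 lie below 1, and that of IAA7 includes 1 and reaches down no further than 0.951. As above, no share over all features was computed for such intervals. The window of IAA7 (chr3:8194306-8194605, plus strand) is shown as that of the abundant member with nearly equal levels, with a G-box, the site bound by phytochrome-interacting factors and other basic helix-loop-helix proteins, in capitals.
IAA7: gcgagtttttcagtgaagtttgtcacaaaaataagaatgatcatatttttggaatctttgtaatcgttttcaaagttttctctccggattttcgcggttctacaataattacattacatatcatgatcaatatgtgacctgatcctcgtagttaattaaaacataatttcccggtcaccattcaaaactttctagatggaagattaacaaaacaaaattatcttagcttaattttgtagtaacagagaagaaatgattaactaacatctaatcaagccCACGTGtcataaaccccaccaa
The G-box lies 22 to 17 bases before the start. Beside it the IAA7 window held only the short core TGTC, and so did that of IAA14. The window of IAA17 held none of the motifs searched.

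Set against each other, the group of IAA1 to IAA4 was lower than that of IAA7, IAA14, IAA16 and IAA17. IAA4 stood at 29.8 RPKM in jmj17-1 and 41.3 RPKM in WT, a fold of 0.721 (0.681 to 0.764). IAA16 stood at 63.5 RPKM in jmj17-1 and 75.9 RPKM in WT, a fold of 0.837 (0.795 to 0.881). The folds of the 4 genes IAA1 to IAA4 ran from 0.585 to 0.721 and those of the other 4 from 0.759 to 0.993. These ranges of point values did not overlap, but the counting intervals at their edge did. The interval of IAA14, 0.675 to 0.853, overlaps those of IAA4, IAA2 and IAA1. The summed level of IAA1 to IAA4 was 96.7 RPKM in jmj17-1 and 142 RPKM in WT, a ratio of 0.679. The summed level of the other group was 156 RPKM in jmj17-1 and 176 RPKM in WT, a ratio of 0.888. These groups follow coding sequence but were set side by side after their values were seen, so this is a description of 8 genes.

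**Figure D2:**
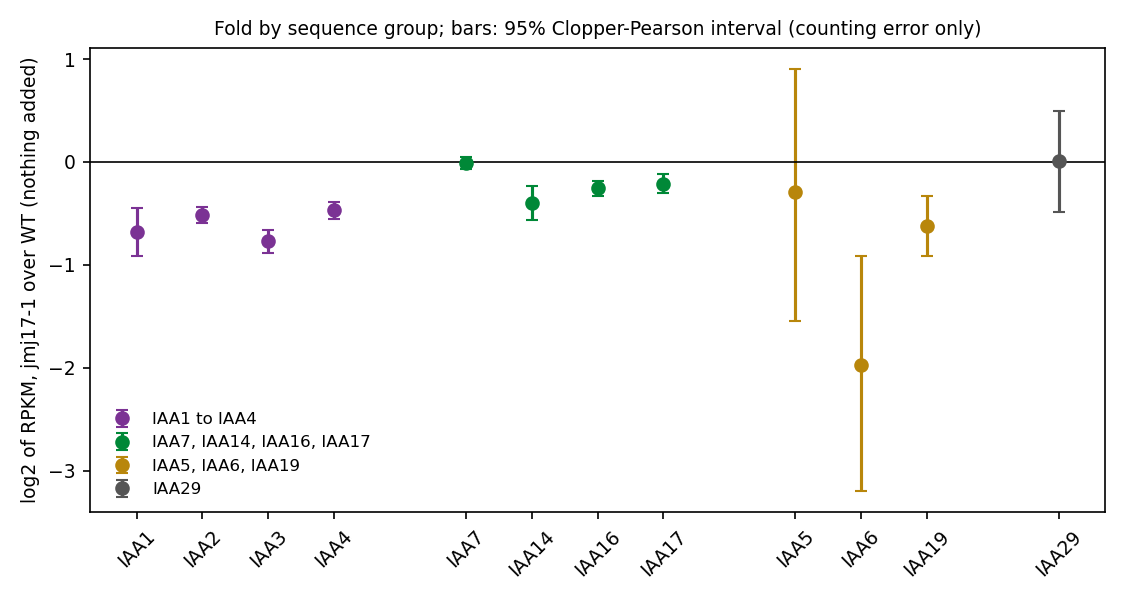
Points are log2 of the plain RPKM ratio of jmj17-1 over WT for 12 Aux/IAA genes, grouped by coding sequence. IAA5, drawn with IAA6 and IAA19, is nearly as close in coding sequence to IAA2 as to IAA6. Bars are 95% Clopper-Pearson intervals that cover counting error only. The 4 points of IAA1 to IAA4 all lie below the 4 points of IAA7, IAA14, IAA16 and IAA17, but the bar of IAA14 overlaps those of IAA1, IAA2 and IAA4.

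Within each neighbouring pair the gene of the IAA1 to IAA4 group had the lower fold. This order follows from the group ranges above, which do not overlap, and is no separate result. The level of IAA3 relative to IAA17 was 0.487 in jmj17-1 and 0.719 in WT, and the fold of IAA3 was 0.678 times that of IAA17 (95% interval 0.614 to 0.750). IAA2 relative to IAA7 was 0.840 in jmj17-1 and 1.19 in WT, with a ratio of folds of 0.704 (0.658 to 0.754). IAA1 relative to IAA14 was 1.03 in jmj17-1 and 1.25 in WT, with a ratio of folds of 0.822 (0.675 to 1.003). The first 2 intervals exclude 1 and that of IAA1 and IAA14 does not. These are exact conditional intervals of an odds ratio and again cover counting error only.

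IAA19 acts in hypocotyl growth and bending, and IAA5 and IAA6 are related genes with low levels in these seedlings. IAA19 stood at 3.54 RPKM in jmj17-1 and 5.45 RPKM in WT, a fold of 0.650 (0.531 to 0.792, from 156 and 285 reads). Its log2 ratio of -0.51 fell short of the 1.5-fold size because of the added 1. IAA6 stood at 0.239 RPKM in jmj17-1 and 0.940 RPKM in WT, from 9 and 42 reads, a fold of 0.254 with a wide interval of 0.109 to 0.530. It was the lowest fold of the 10 genes, but IAA6 was under the level limit and does not enter the counts. IAA5 stood at 0.365 RPKM in jmj17-1 and 0.447 RPKM in WT, from 11 and 16 reads, and its fold of 0.816 (0.342 to 1.87) gave no direction at this depth. IAA5 overlaps AT1G15570 on the opposite strand by 48 bases.

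The windows of IAA6 (chr1:19673653-19673952, minus strand) and IAA19 (chr3:5263701-5264000, plus strand) are shown because both genes were lower and because the windows resemble each other. Capitals mark TGTCTC and the G-box.
IAA6: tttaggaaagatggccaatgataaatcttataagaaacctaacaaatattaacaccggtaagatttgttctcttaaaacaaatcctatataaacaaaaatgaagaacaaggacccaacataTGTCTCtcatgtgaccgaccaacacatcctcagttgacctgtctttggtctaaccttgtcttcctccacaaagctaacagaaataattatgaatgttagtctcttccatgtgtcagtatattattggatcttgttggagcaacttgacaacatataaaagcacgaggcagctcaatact
IAA19: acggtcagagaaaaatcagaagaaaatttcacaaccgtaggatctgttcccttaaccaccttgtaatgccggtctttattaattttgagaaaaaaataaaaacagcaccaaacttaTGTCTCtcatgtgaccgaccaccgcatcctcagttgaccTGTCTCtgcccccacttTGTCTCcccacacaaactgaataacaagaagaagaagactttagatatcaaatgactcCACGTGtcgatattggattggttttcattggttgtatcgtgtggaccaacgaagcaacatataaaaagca
The IAA19 window holds 3 auxin response elements, the first 184 to 179 bases before the start, and a G-box 70 to 65 bases before it. The IAA6 window holds 1 element, 179 to 174 bases before the start. These windows share a run of 23 identical bases that includes an element, 181 to 159 bases before the start of IAA6 and 186 to 164 bases before that of IAA19. Of the 45 pairs among the 10 windows this was the longest shared run, and the next longest was 13 bases.

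Across the 10 windows the element TGTCTC was found in 5, namely those of IAA1, IAA3, IAA5, IAA6 and IAA19. It was found in 12.9% of the 23403 windows of the same length before the protein-coding genes of the table. The variant TGTCGG was found in 2 of 10 and in 5.15% of all windows, the G-box in 2 of 10 and in 7.76%, and the core TGTC, which both longer forms contain, in 8 of 10 and in 81.2%. Both strands were searched. The folds of the 5 genes with TGTCTC ran from 0.254 to 0.816, and those of the 5 without it, IAA2, IAA7, IAA14, IAA17 and IAA29, from 0.699 to 1.004. The ranges overlap, and a match is not a shown binding site.

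IAA29, a gene known for its response to shade and warmth through phytochrome-interacting factors, stood at 1.67 RPKM in jmj17-1 and 1.66 RPKM in WT, from 66 and 78 reads. The fold of 1.004 had an interval of 0.712 to 1.41, and a difference within these bounds was not detectable at this depth. Its window held none of the motifs searched.

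The order of levels was similar in both libraries, with exchanges at the top and at the bottom. In jmj17-1 it ran IAA7, IAA2, IAA17, IAA3, IAA1, IAA14, IAA19, IAA29, IAA5 and IAA6. In WT it ran IAA2, IAA7, IAA17, IAA3, IAA1, IAA14, IAA19, IAA29, IAA6 and IAA5. The neighbours whose Poisson intervals overlapped were IAA1 and IAA14 and, at the bottom, IAA5 and IAA6 in jmj17-1, and IAA6 and IAA5 in WT. The 4 most abundant genes, IAA2, IAA7, IAA17 and IAA3, made up most of the summed level. IAA7 held 32.5% of it in jmj17-1 and 25.8% in WT, and IAA3 held 9.82% in jmj17-1 and 13.2% in WT. RPKM is set per length, but the lengths are the authors' and were not given.

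**Figure D3:**
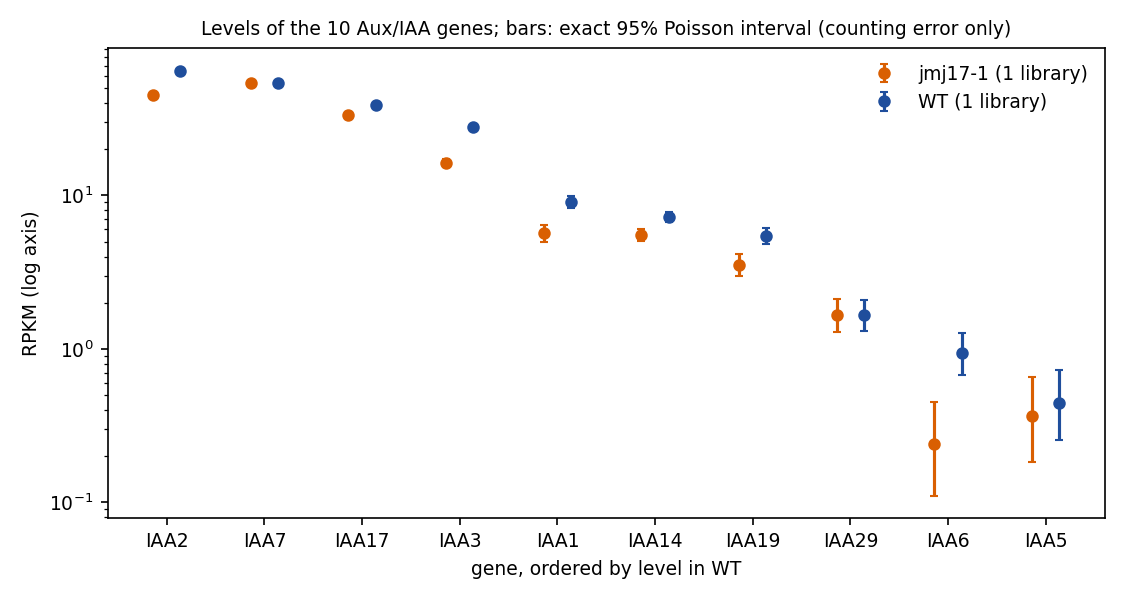
Points are RPKM on a log axis for each of the 10 genes, jmj17-1 left of WT, with 1 library each, and bars are exact 95% Poisson intervals of the reads. IAA2, IAA17, IAA3, IAA1, IAA14, IAA19 and IAA6 have intervals that do not overlap between the libraries, while those of IAA7, IAA29 and IAA5 do. The bars cover counting error only. The share of all features with intervals that do not overlap was not computed, so this is no result about the Aux/IAA genes.

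Of the other 19 Aux/IAA genes 13 met the level limit, with a median log2 ratio of -0.03. Of these 13, 7 lay below 0, against 39.5% of all features, and 6 above. A 1.5-fold difference in either direction was reached by 0 of the 13, against 3.44% of all features. Their summed level was 445 RPKM in jmj17-1 and 468 RPKM in WT. IAA8 and IAA9, the most abundant of the family, stood at 118 and 129.8 RPKM in jmj17-1, against 130.5 and 119.9 RPKM in WT, with folds of 0.905 (0.880 to 0.930) and 1.08 (1.05 to 1.11). IAA28, a repressor of lateral root initiation, was the highest, at 18.3 RPKM in jmj17-1 and 13.2 RPKM in WT (fold 1.39, 1.21 to 1.59). IAA18 stood at 14.2 RPKM in jmj17-1 and 16.6 RPKM in WT, a fold of 0.852 (0.787 to 0.923). IAA10, IAA11, IAA12, IAA13, IAA26, IAA27 and IAA30 had folds between 0.928 and 1.08, with intervals that include 1. IAA9, IAA10, IAA11, IAA13 and IAA27 overlap genes of the other strand, which makes their levels uncertain as for IAA3. Over all 29 genes the summed level was 609.8 RPKM in jmj17-1 and 678 RPKM in WT, a ratio of 0.900. Of the 29, 21 met the level limit, with a median log2 ratio of -0.10. Of these 21, 14 lay below 0, against 39.5% of all features, and 7 above.

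The genes that read and answer auxin were set beside them. Of the 6 TIR1/AFB receptors 0 reached 1.5-fold in either direction, against 3.44% of all features, with a median of -0.03. At that share a count of 0 is the usual one for lists this short. TIR1 stood at 33.2 RPKM in jmj17-1 and 37.8 RPKM in WT, AFB1 at 20.02 RPKM in jmj17-1 and 22.1 RPKM in WT, and AFB3 at 19.4 RPKM in jmj17-1 and 18.2 RPKM in WT. Of the 15 ARFs 0 reached it either, with a median of -0.02 and log2 ratios from -0.19 to 0.26. ARF5, which acts in embryo and vascular patterning, stood at 5.76 RPKM in jmj17-1 and 6.73 RPKM in WT. ARF4 stood at 16.3 RPKM in jmj17-1 and 13.4 RPKM in WT, and ARF11 at 4.69 RPKM in jmj17-1 and 5.43 RPKM in WT.

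Among other auxin-induced genes, small auxin up RNA (SAUR) genes promote cell expansion. They included the lowest log2 ratios among the genes of the auxin lists that met the level limit. Of 23 SAUR genes, listed with earlier results of these data known, 20 met the level limit. Of these 20, 19 lay below 0, against 39.5% of all features. Of the same 20, 4 were at least 2-fold lower, against 0.580%, and 13 at least 1.5-fold lower, against 1.93%. Their median log2 ratio was -0.73. SAUR27 stood at 1.12 RPKM in jmj17-1 and 3.98 RPKM in WT (fold 0.282, 0.191 to 0.405, from 37 and 156 reads). SAUR19, SAUR22 and SAUR23 stood at 0.787, 1.02 and 1.53 RPKM in jmj17-1, against 2.76, 3.098 and 4.13 RPKM in WT. Both the median and the share of genes counted depend on the list and on the added 1. Among all 53 analysed loci that RefSeq names as SAUR, counted after the values were seen, 14 were at least 1.5-fold lower, against 1.93% of all features, and 2 higher, against 1.51%. Of the same 53 loci, 34 lay below 0, against 39.5% of all features, and 19 lay above. The median of the 53 was -0.15. With 5 RPKM added in place of 1 the median of the 20 was -0.43, 0 were 2-fold and 1 was 1.5-fold lower. Of the 23, SAUR62, SAUR63 and SAUR67 have a near-identical stretch elsewhere in the genome, so their values are uncertain. SAUR63 and SAUR64 overlap AT1G29435 on the opposite strand, which makes their levels uncertain as for IAA3.

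The GH3 genes, whose enzymes conjugate auxin to amino acids, had a median of -0.12 over 6 genes, and of -0.31 over those with a mean of at least 5 RPKM. GH3.6 stood at 19.7 RPKM in jmj17-1 and 29.2 RPKM in WT (fold 0.673, 0.637 to 0.711), GH3.5 at 7.57 RPKM in jmj17-1 and 9.64 RPKM in WT, and GH3.17 at 11.9 RPKM in jmj17-1 and 13.8 RPKM in WT. Of the LBD and HD-ZIP transcription factor genes induced by auxin or shade, 3 were analysed. All 3 lay below 0, against 39.5% of all features, with a median of -0.29 that was -0.16 without a limit on level. ATHB2 stood at 4.25 RPKM in jmj17-1 and 5.72 RPKM in WT, HAT2 at 17.4 RPKM in jmj17-1 and 21.5 RPKM in WT, and LBD16 at 0.956 RPKM in jmj17-1 and 1.18 RPKM in WT. None of these reached 1.5-fold, against 3.44% of all features.

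Genes of auxin supply were read by the same sizes. Of 11 synthesis genes 5 met the level limit and 0 reached 1.5-fold, against 3.44% of all features. TAA1, which makes the precursor indole-3-pyruvate, stood at 14.8 RPKM in jmj17-1 and 11.4 RPKM in WT, a log2 ratio of 0.36, with a 95% interval of the fold from 1.19 to 1.43. The flavin monooxygenase genes YUC8 and YUC5 stood at 1.40 and 1.12 RPKM in jmj17-1, against 1.02 and 1.42 RPKM in WT. Of 14 transport genes 13 met the level limit, with a median of -0.13 and 0 at 1.5-fold, against 3.44% of all features. The efflux transporter gene ABCB19 stood at 37.7 RPKM in jmj17-1 and 47.2 RPKM in WT (fold 0.798, 0.775 to 0.822). The influx carrier gene LAX1 stood at 15.5 RPKM in jmj17-1 and 18.01 RPKM in WT, and the efflux carrier gene PIN3 at 24.9 RPKM in jmj17-1 and 28.6 RPKM in WT.

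**Figure D4:**
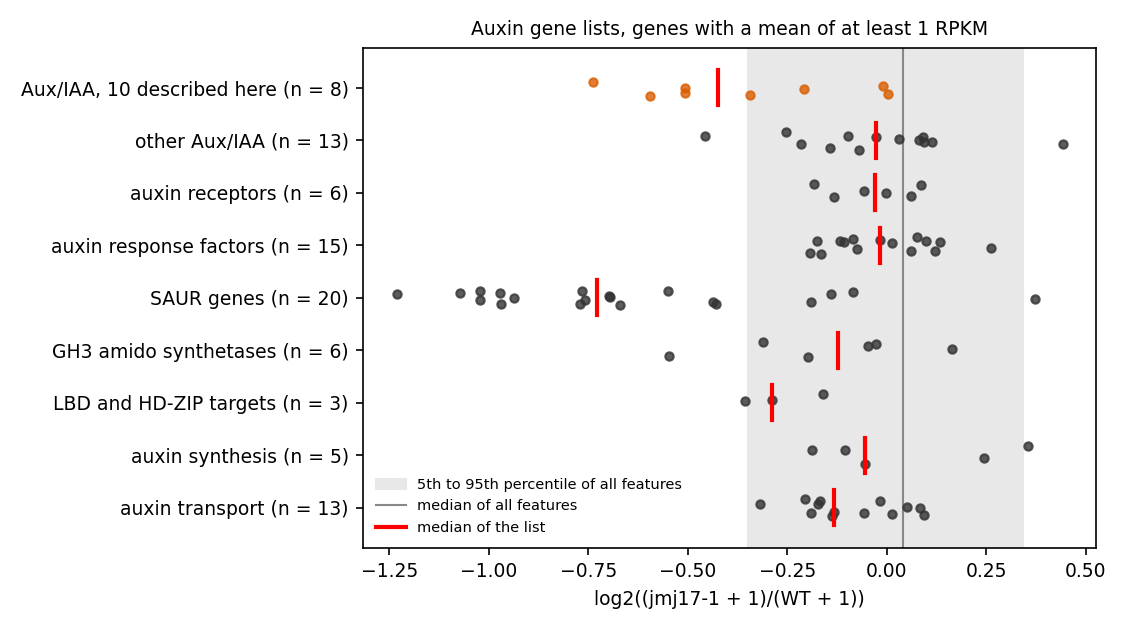
Each point is the log2 ratio of 1 gene with a mean of at least 1 RPKM, red bars are list medians, and the grey band runs from the 5th to the 95th percentile of all features, -0.35 to 0.34. The band describes single features and gives no measure for a list's median. The points of IAA1, IAA2, IAA3 and IAA19 lie to the left of it. So do those of IAA4, GH3.6, ATHB2 and most SAUR genes in the other lists.

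The authors' deposited table lists 410 of its 26743 features at a p-value of 0.05, and 0 of the 29 Aux/IAA genes are among them. With so small a share listed, a count of 0 says little about the family. The smallest value among the 10 genes in the authors' deposited table was a p of 0.0643 for IAA2, and that of IAA3 was 0.0829. How the authors made these p-values is not stated, and with 1 library per genotype they hold no spread between seedlings.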

How the data were processed

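The authors deposited 1 table of RPKM values for 26743 features, with a Z score and a p-value deposited for each. The submitters' processing notes name TAIR10 as genome build. No source used here names the aligner, the counter, the feature lengths or whether strand was used. Library preparation used a TruSeq RNA kit, per the labels' protocols. Both columns were assigned by title, and 0 were left over.

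Read totals were computed from the most common product of RPKM and exonic length in RefSeq's annotation of TAIR10.1, the value of 1 read (530 features in jmj17-1 and 465 in WT). For 72.05% of 18292 coding genes a length existed at which both values were whole reads within 1e-05. The smallest such length that holds the coding sequence was used, so read numbers can be too low and intervals too wide. For IAA3 and IAA14 there was none, and their reads are approximate, from exonic length. Folds carry exact Clopper-Pearson and levels exact Poisson 95% intervals, which cover counting error only.

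No test was planned or run, since each genotype has 1 library. The size rules, the pseudocount of 1 RPKM and the level limit are given beside the results. All 10 genes and the other Aux/IAA genes at or above the level limit were named, and from each other auxin list those past 2-fold, or else the 3 with the largest absolute log2 ratio. The 10 genes and the lists were chosen with earlier results of these data known. Identity is the share of the longer coding sequence, from global alignment with Biopython 1.88. Copies were sought with BLAST+ 2.17.0. Values were computed with Python 3.11.15, numpy 2.4.6, pandas 2.3.3 and scipy 1.17.1, and the scripts were tested on simulated data.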

Additional observations from a re-analysis of the deposited data

How the results depend on the processing

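No paired analysis was possible because each genotype has 1 library. Leaving out a library was not possible for the same reason. With a pseudocount of 5 RPKM 1 Aux/IAA gene, IAA3, was at least 1.5-fold lower, against 2 with 1 RPKM, and the median of the 8 genes was -0.26, against -0.42. With the median of all features set to 0 the ratio of summed RPKM was 0.766, against 0.788. Without a limit on level IAA6, and with a pseudocount of 0.1 RPKM IAA19, joined IAA1 and IAA3 at 1.5-fold. IAA6's log2 ratio was -1.62 with a pseudocount of 0.1 RPKM. Of 54 values of single genes under the alternatives, 53 moved by less than the counting interval, and neither IAA1 nor IAA3 changed sign. IAA7 ranged from -0.05 to 0.0018 and IAA29 from -0.04 to 0.01, so neither has a direction. Of the 8 genes, 6 lay below 0 with RPKM rescaled without organelle features. With quantile normalization, or with the median of all features set to 0, 8 did. The share of all features below 0 was not computed for these settings. Among the SAUR genes 7 were at least 2-fold lower with a pseudocount of 0.1 RPKM and 0 with 5 RPKM, where 1 was at least 1.5-fold lower and the median was -0.43. With a mean of at least 5 RPKM, 0 SAUR genes were 2-fold and 6 were 1.5-fold lower. Depth limits IAA5, IAA6 and IAA29, with under 100 reads in each library at the smallest fitting lengths. These read numbers can be too low.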
